A study of Arabidopsis thaliana with 16 samples.

Results

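The Aux/IAA and GH3 families are 2 sets of genes, many but not all of which plant cells switch on soon after auxin is perceived. The 38 loci described here were chosen by family membership. They are 29 Aux/IAA genes, IAA1 to IAA20 and IAA26 to IAA34, and 9 GH3 genes, GH3.1 to GH3.6, GH3.9, GH3.10 and GH3.17. All 38 were found among the 33602 loci of the count table, and 36 of them, 28 Aux/IAA and 8 GH3 genes, had enough counts to be tested.

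Poly(A) RNA of Arabidopsis thaliana was sequenced in 16 libraries, 4 from each of 4 genotypes. The genotypes were d14-7, a mutant of the strigolactone receptor D14, ckx3 ckx5, a double mutant of the cytokinin oxidases CKX3 and CKX5, scl28, a mutant of the GRAS transcription factor SCARECROW-LIKE28, and the wild type Col-0 (WT). Each library was a pool of 2 to 3 rosette regions from plants with a bolt under 1 cm, after leaves, roots and the elongated stem had been cut away, and the 4 pools of 5 with the best RNA integrity were sequenced. Plants grew under 16 h light and 8 h dark and were taken between 9 and 11 in the morning, d14-7, ckx3 ckx5 and WT 23 days after sowing and scl28 25 days after sowing. For scl28, genotype and day of harvest therefore cannot be told apart. The study asked how rosette branching is held back in plants lacking SCL28 or both cytokinin oxidases, and auxin from the shoot tip is a hormone known to restrain axillary buds.

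Auxin is bound jointly by an F-box receptor of the TIR1/AFB family and by the degron of an Aux/IAA protein, which is then ubiquitinated and degraded. Aux/IAA proteins hold back the ARF transcription factors with the help of TOPLESS corepressors, so that their loss releases the ARFs. Released ARFs activate, among others, most Aux/IAA genes and several GH3 genes, and both families thereby close a feedback loop. Most GH3 enzymes of the group studied here join indole-3-acetic acid to amino acids, which takes auxin out of the active pool.

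ARFs bind the auxin response element, whose core was searched as TGTCTC and as the high-affinity form TGTCGG. The 250 bases before the annotated gene start were read on both strands, together with the G-box CACGTG, to which PIF and other bHLH or bZIP factors bind. At least 1 TGTCTC stood in 12 of the 38 promoters (31.6%), against 10.9% of 27443 promoters of protein-coding genes, TGTCGG in 6 (15.8%, against 4.2%) and CACGTG in 5 (13.2%, against 6.5%). Either auxin response element stood in 16 (42.1%, against 14.7%), and no matches overlapped in the member promoters. A match describes the letters in this window only. The 5 promoters printed here belong to genes on which the results below turn, the auxin-inducible repressor genes IAA1, IAA5 and IAA19 and the pair GH3.3 and GH3.6, which moved in opposite directions in d14-7. Each is given 5′ to 3′ on the gene's own strand, ending at the base before the gene start, with matches to the 3 motifs on either strand in capitals, from the RefSeq genome of assembly TAIR10.1. They lie at chr4:8360746-8360995 (plus strand, IAA1), chr1:5366498-5366747 (minus strand, IAA5), chr3:5263751-5264000 (plus strand, IAA19), chr2:9866563-9866812 (minus strand, GH3.3) and chr5:22133689-22133938 (minus strand, GH3.6).
IAA1: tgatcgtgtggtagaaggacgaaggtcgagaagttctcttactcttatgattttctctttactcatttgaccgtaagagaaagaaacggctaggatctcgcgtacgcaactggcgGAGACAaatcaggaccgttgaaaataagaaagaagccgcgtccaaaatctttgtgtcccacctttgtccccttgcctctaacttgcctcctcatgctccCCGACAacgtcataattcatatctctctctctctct
IAA5: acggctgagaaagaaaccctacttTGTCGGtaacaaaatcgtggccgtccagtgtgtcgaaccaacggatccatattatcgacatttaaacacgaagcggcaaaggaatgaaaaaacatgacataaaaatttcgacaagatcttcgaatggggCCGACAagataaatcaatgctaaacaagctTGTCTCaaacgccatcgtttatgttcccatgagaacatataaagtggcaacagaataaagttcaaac
IAA19: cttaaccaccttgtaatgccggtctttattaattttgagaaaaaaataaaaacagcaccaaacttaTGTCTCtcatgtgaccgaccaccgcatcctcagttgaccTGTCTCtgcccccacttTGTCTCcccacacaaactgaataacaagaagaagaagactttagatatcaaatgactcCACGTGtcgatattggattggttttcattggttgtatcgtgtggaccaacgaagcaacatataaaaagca
GH3.3: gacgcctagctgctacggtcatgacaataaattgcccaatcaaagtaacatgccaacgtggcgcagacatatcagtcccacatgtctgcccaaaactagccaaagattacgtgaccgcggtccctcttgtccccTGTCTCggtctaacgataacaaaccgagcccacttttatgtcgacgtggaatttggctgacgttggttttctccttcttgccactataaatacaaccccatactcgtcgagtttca
GH3.6: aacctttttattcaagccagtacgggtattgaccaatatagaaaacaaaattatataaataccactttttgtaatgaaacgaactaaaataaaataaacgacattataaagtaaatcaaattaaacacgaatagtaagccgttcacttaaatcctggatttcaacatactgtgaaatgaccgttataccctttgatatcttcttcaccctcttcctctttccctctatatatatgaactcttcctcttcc
The IAA1 promoter holds 1 match to each auxin response element, 135 and 36 bases before the start. In IAA5 there are 2 matches to TGTCGG, beginning 226 and 97 bases before the start, and a TGTCTC at 67 bases. The IAA19 promoter carries 3 copies of TGTCTC, at 184, 145 and 128 bases, and a G-box at 70 bases. GH3.3 has a single TGTCTC at 116 bases, and GH3.6 has none of the 3 motifs in this window. Among the other GH3 genes, GH3.2 and GH3.5 both hold a TGTCTC, and in d14-7 GH3.2 rose and GH3.5 fell. GH3.1, GH3.10, GH3.9 and GH3.17 hold none of the 3 motifs, and there the first pair rose and the second fell. Of the Aux/IAA genes with TGTCGG, IAA1 and IAA5 rose in d14-7, IAA13, IAA16 and IAA27 fell, and IAA12 did not pass. A link between matches and direction was not tested.

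Library totals ran from 24334925 to 36735056 counts. SCL28 transcript averaged 15.5 ± 1.95 CPM in scl28, against 36.5 ± 8.73 in WT, and D14 averaged 30.5 ± 2.74 CPM in d14-7, against 41.2 ± 2.08 in WT (SD, n = 4 each). D14 was also low in the ckx3 ckx5-labelled libraries, at 28.1 ± 1.69 CPM. CKX5 lay between 2.18 and 4.25 CPM in the ckx3 ckx5-labelled libraries, within the WT range of 2.11 to 6.11 CPM. CKX3 was not reduced, with 58, 40, 65 and 54 counts in the ckx3 ckx5-labelled libraries and 20, 15, 4 and 2 counts in WT. Whether the mutant alleles still leave a transcript could not be tested here, and these libraries are therefore called by their label. Of the shoot meristem and axil markers, STM and REV averaged 94.5 to 148 CPM in the 4 genotypes while WUS and CLV3 averaged at most 0.392 CPM. The 4 root markers summed to at most 0.576 CPM in any library. Leaf photosynthesis transcripts differed between and within genotypes. All 14 leaf markers were tested and none was at 0, and their summed level spanned 24291 to 30950 CPM in d14-7, 16555 to 19659 in the ckx3 ckx5-labelled libraries, 15323 to 18143 in scl28 and 15273 to 29322 in WT. The leaf score averages log2 CPM over these 14 genes. It ran from 10.46 to 10.81 in d14-7, and WT replicate 1 lay in that range at 10.74 while the other WT libraries were at 10.31, 9.93 and 9.74. In bulk tissue, fewer cells of a type and less RNA per cell cannot be told apart.

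Levels between genes were compared as CPM, counts scaled to the effective library size, per kb of exon. The Aux/IAA family summed to 933 ± 66.1 CPM per kb in d14-7, 1097 ± 58.0 in the ckx3 ckx5-labelled libraries, 1112 ± 37.4 in scl28 and 1044 ± 130 in WT (SD, n = 4 each). In these same units IAA8 and IAA9 led in all 4 genotypes, at 177 ± 6.61 and 162 ± 5.35 in d14-7 and 164 ± 4.82 and 178 ± 23.8 in WT, and the pair supplied 36.3% of the family sum in d14-7 and 32.8% in WT. IAA27 and IAA16 came next in every genotype, in an order that varied. In WT 7 Aux/IAA members lay under 1 CPM per kb, from IAA34 at 0.0718 ± 0.0591 to IAA6 at 0.929 ± 0.533. The GH3 sum was lower than the Aux/IAA sum in every genotype. It was 131 ± 17.6 CPM per kb in d14-7, 269 ± 14.2 in the ckx3 ckx5-labelled libraries, 206 ± 42.9 in scl28 and 285 ± 61.9 in WT, and the highest d14-7 library (149) was below the lowest WT library (201).

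The make-up of the GH3 pool differed between genotypes as well. GH3.6 supplied 23.5 ± 2.89% of the family's CPM per kb in d14-7, 55.2 ± 2.06% in the ckx3 ckx5-labelled libraries, 38.1 ± 0.797% in scl28 and 45.0 ± 1.92% in WT (SD, n = 4 each). GH3.3 supplied 26.1 ± 1.02% in d14-7, 9.79 ± 1.29% in the ckx3 ckx5-labelled libraries, 6.78 ± 1.07% in scl28 and 8.46 ± 1.54% in WT. GH3.3, GH3.5 and GH3.6 thus stood at similar levels in d14-7, 34.2 ± 5.18, 31.9 ± 8.90 and 30.6 ± 5.01 CPM per kb, which did not differ beyond their spread. In WT the same 3 genes were at 23.6 ± 4.48, 86.4 ± 30.6 and 127 ± 23.2 CPM per kb, with GH3.3 lowest.

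**Figure D1:**
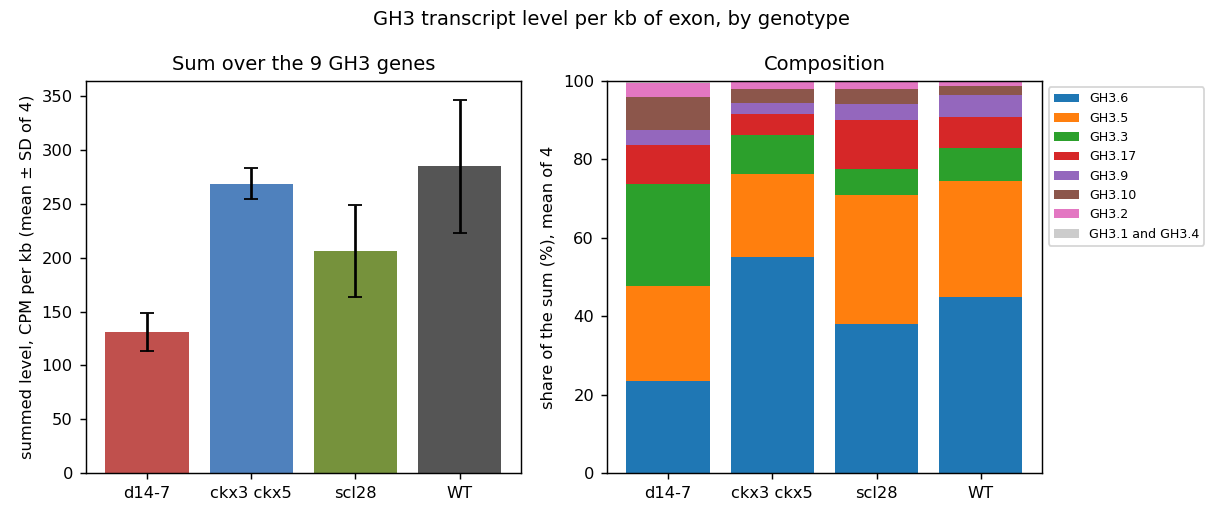
Left, summed level of the 9 GH3 genes in CPM per kb of exon (bars, mean; error bars, SD of 4 libraries) for d14-7, the ckx3 ckx5-labelled libraries, scl28 and WT. Right, the percentage of that sum supplied by each gene; GH3.6 gives 23.5% of a sum of 131 in d14-7 and 45.0% of a sum of 285 in WT, while GH3.3 gives 26.1% in d14-7 and 8.46% in WT.

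A gene is said to have risen or fallen where its edgeR quasi-likelihood p, adjusted over all 20947 loci tested, was under 0.05, and a change is the model's log2 fold change ± SE with n = 4 libraries per group. In d14-7 all 8 GH3 genes tested changed against WT, 4 up and 4 down. Among the Aux/IAA genes 3 of 28 rose and 5 fell, led by a large rise of the shade-inducible IAA29. In all, 16 of 36 members changed (44.4%), where 38.7% of all loci did. They were 7 higher, where 18.1% of all loci were, and 9 lower, where 20.6% were. Groups did not overlap in 15 of 36 members, against 26.8% of all loci. The median absolute change was 0.43 over the members and 0.24 over all loci. For GH3 it was 1.03, and for Aux/IAA 0.32.

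**Figure D2:**
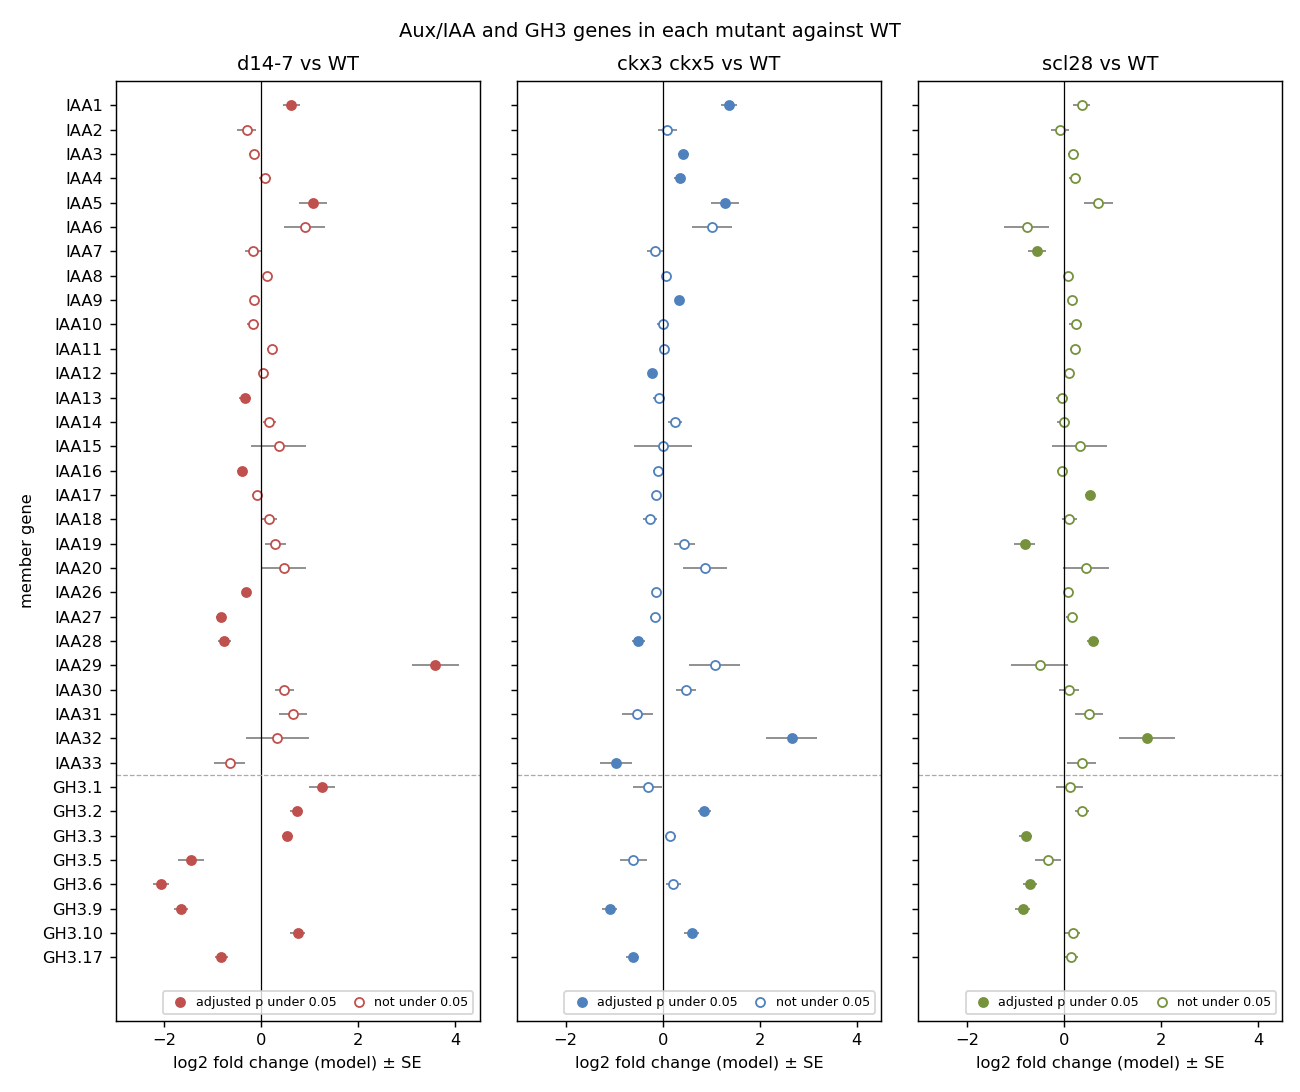
Log2 fold change of each tested member (points, ± SE) in d14-7, the ckx3 ckx5-labelled libraries and scl28, each against WT. Filled points had an edgeR adjusted p under 0.05, and the dashed line parts Aux/IAA genes (above) from GH3 genes (below). All 8 GH3 points are filled for d14-7, and IAA29 at 3.59 stands farthest to the right.

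GH3.6 (AT5G54510, DFL1, chromosome 5, 22130964 to 22133688, minus strand) conjugates auxin to amino acids and dwarfs plants when overexpressed. It was at 72.4, 59.9, 64.8 and 86.5 CPM in d14-7 replicates 1 to 4 and at 361, 326, 338 and 352 CPM in the ckx3 ckx5-labelled libraries. It was at 170, 152, 164 and 240 CPM in scl28 and at 223, 286, 334 and 338 CPM in WT. Every d14-7 library was far below every other library, and scl28 overlapped WT only through scl28 replicate 4 and WT replicate 1. GH3.6 fell by 2.06 ± 0.16 in d14-7 (edgeR adjusted p = 5.27e-07).

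GH3.5 (AT4G27260, WES1, chromosome 4, 13653579 to 13656285, plus strand) acts on both auxin and salicylic acid. Its levels were 57.6, 56.9, 97.2 and 89.1 CPM in d14-7 and 163, 140, 119 and 118 CPM in the ckx3 ckx5-labelled libraries. They were 147, 114, 148 and 238 CPM in scl28 and 104, 197, 254 and 259 CPM in WT. The d14-7 libraries were below all others, but WT replicate 1 was close above them and well under the remaining WT libraries. GH3.5 fell by 1.44 ± 0.27 in d14-7 (edgeR adjusted p = 0.00124), and with the leaf score as a covariate the change was -0.79 and no longer called (edgeR adjusted p = 0.141).

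GH3.9 (AT2G47750, chromosome 2, 19560127 to 19563960, minus strand), a family member studied mainly in roots, was lower in every mutant library than in every WT library. It was at 14.5, 12.0, 14.6 and 16.1 CPM in d14-7 and at 24.1, 20.4, 19.6 and 20.8 CPM in the ckx3 ckx5-labelled libraries. In scl28 it was at 23.4, 20.2, 23.2 and 33.3 CPM and in WT at 36.2, 41.0, 46.7 and 56.0 CPM. The d14-7 libraries were also below all others, while the ckx3 ckx5-labelled ones overlapped scl28. GH3.9 fell by 1.65 ± 0.15 in d14-7 (edgeR adjusted p = 3.37e-06), and the annotated locus AT2G09955 overlaps it, whose reads cannot be separated in a library that does not mark strand.

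GH3.17, which prefers glutamate as the amino acid, fell by 0.82 ± 0.14 in d14-7 (edgeR adjusted p = 0.000509), with 32.3 to 36.3 CPM in d14-7 and 43.3 to 72.9 CPM in WT. Its fall was 0.45 with the leaf score as a covariate (edgeR adjusted p = 0.0175). The locus has a first and a second annotated transcript model, and the first took 90.6, 84.6, 90.3 and 78.2% of its estimated counts in d14-7. That share was 67.8, 63.2, 69.7 and 65.5% in the ckx3 ckx5-labelled libraries, 74.9, 76.8, 61.8 and 69.1% in scl28 and 80.3, 68.9, 76.9 and 73.0% in WT. The share was 85.9 ± 5.82% in d14-7 and 74.8 ± 4.93% in WT (SD, n = 4 each; exact two-sided permutation p = 0.0571, adjusted over 3 comparisons 0.0857, where 0.0286 is the smallest p the design allows). The difference in share from WT thus did not pass in d14-7. Neither did it pass in the ckx3 ckx5-labelled libraries (66.5 ± 2.82%, exact permutation p = 0.0571, adjusted 0.0857) or in scl28 (70.6 ± 6.72%, exact permutation p = 0.400, adjusted 0.400).

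The 4 GH3 genes that rose in d14-7 were GH3.1, GH3.2, GH3.3 and GH3.10. GH3.3 (AT2G23170, chromosome 2, 9863855 to 9866562, minus strand), one of the most auxin-inducible members of the family, was at 64.3, 61.8, 83.3 and 80.4 CPM in d14-7 and at 56.2, 49.8, 64.9 and 52.0 CPM in the ckx3 ckx5-labelled libraries. It was at 27.6, 27.8, 29.9 and 30.0 CPM in scl28 and at 43.1, 47.6, 64.0 and 45.3 CPM in WT. All scl28 libraries were below all others, and d14-7 overlapped WT through d14-7 replicate 2 and WT replicate 3. GH3.3 rose by 0.54 ± 0.12 in d14-7 (edgeR adjusted p = 0.00409).

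GH3.1 (AT2G14960, chromosome 2, 6451319 to 6453797, minus strand) was scarce, at 1.14, 1.40, 0.856 and 1.90 CPM in d14-7 and 0.467, 0.358, 0.391 and 0.575 CPM in the ckx3 ckx5-labelled libraries. It was at 0.649, 0.723, 0.534 and 0.534 CPM in scl28 and 0.748, 0.463, 0.471 and 0.554 CPM in WT. Only the d14-7 libraries stood apart, above all the rest. GH3.1 rose by 1.25 ± 0.27 in d14-7 (edgeR adjusted p = 0.00267).

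GH3.2 (AT4G37390, chromosome 4, 17579618 to 17582022, plus strand), named BRU6 in the annotation, was at 10.6, 10.1, 9.81 and 10.9 CPM in d14-7 and at 12.2, 10.3, 13.6 and 8.88 CPM in the ckx3 ckx5-labelled libraries. It was at 9.06, 8.71, 7.12 and 7.41 CPM in scl28 and at 7.12, 7.30, 5.53 and 5.04 CPM in WT. Both d14-7 and the ckx3 ckx5-labelled libraries lay above all WT libraries. GH3.2 rose by 0.73 ± 0.14 in d14-7 (edgeR adjusted p = 0.00135). GH3.10 (DFL2), described from hypocotyl growth in red light, rose by 0.75 ± 0.15 (edgeR adjusted p = 0.00134), with 37.1 to 39.6 CPM in d14-7 and 17.3 to 31.2 CPM in WT, and its rise was 0.41 with the leaf score as a covariate (edgeR adjusted p = 0.0160). The same covariate took the calls of GH3.1 (1.04, edgeR adjusted p = 0.0694) and GH3.2 (0.44, edgeR adjusted p = 0.0513). The annotated locus AT4G03410 overlaps GH3.10.

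**Figure D3:**
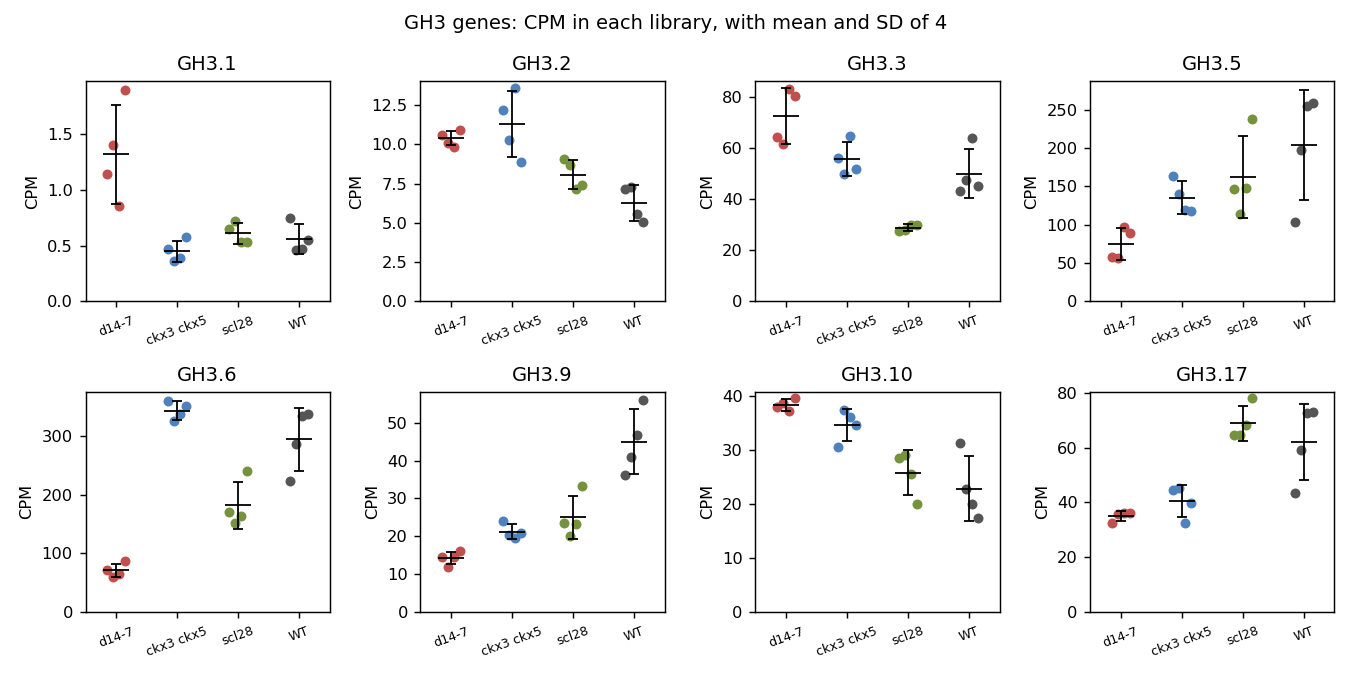
CPM of the 8 tested GH3 genes in each library (points) with the mean and SD of 4, for d14-7, the ckx3 ckx5-labelled libraries, scl28 and WT. In GH3.9 all 12 mutant points lie below the lowest WT point at 36.2 CPM, while in GH3.3 the scl28 points, at 27.6 to 30.0 CPM, lie below all others.

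IAA29 (AT4G32280, chromosome 4, 15583332 to 15584903, plus strand) encodes a repressor known as a target of PIF factors in shade and warmth. It was at 3.37, 2.17, 10.7 and 13.5 CPM in d14-7 and at 1.15, 0.931, 1.57 and 1.53 CPM in the ckx3 ckx5-labelled libraries. It was at 0.454, 0.379, 0.614 and 0.283 CPM in scl28 and at 0.813, 0.428, 0.648 and 0.580 CPM in WT, from 12 to 25 counts per WT library. Every d14-7 library was above every other library, and d14-7 replicates 3 and 4 were several times above replicates 1 and 2. IAA29 rose by 3.59 ± 0.49 in d14-7 (edgeR adjusted p = 9.55e-05), the largest change of any member in any comparison with WT, and it remained called under every alternative tried.

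IAA5 and IAA1, small auxin-inducible repressors, rose more modestly in d14-7. IAA5 (AT1G15580, chromosome 1, 5365512 to 5366497, minus strand) was at 2.02, 2.36, 2.50 and 3.66 CPM in d14-7 and at 2.80, 1.75, 2.59 and 5.30 CPM in the ckx3 ckx5-labelled libraries. It was at 2.24, 2.75, 1.60 and 1.79 CPM in scl28 and at 1.40, 1.28, 1.18 and 1.24 CPM in WT. All 12 mutant libraries were above all WT libraries. IAA5 rose by 1.06 ± 0.29 in d14-7 (edgeR adjusted p = 0.0116), and with the leaf score as a covariate it was at 1.03 (edgeR adjusted p = 0.0965). The locus AT1G15570 overlaps IAA5, and its reads cannot be separated here.

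IAA1 (AT4G14560, chromosome 4, 8360996 to 8362033, plus strand) was at 6.28, 7.52, 10.6 and 12.2 CPM in d14-7 and at 14.1, 14.1, 15.5 and 18.4 CPM in the ckx3 ckx5-labelled libraries. It was at 7.53, 8.26, 7.04 and 7.85 CPM in scl28 and at 5.14, 6.38, 6.92 and 5.51 CPM in WT. The ckx3 ckx5-labelled libraries were above all others, and in d14-7 replicate 1 was inside the WT range. IAA1 rose by 0.62 ± 0.17 in d14-7 (edgeR adjusted p = 0.0110), a call not made when the leaf score was a covariate (0.66, edgeR adjusted p = 0.0734) or with only these 2 groups in the model (edgeR adjusted p = 0.0573).

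The 5 Aux/IAA genes that fell in d14-7 were IAA13, IAA16, IAA26, IAA27 and IAA28. IAA27 (AT4G29080, PAP2, chromosome 4, 14323296 to 14325361, minus strand) was at 110, 101, 114 and 99.5 CPM in d14-7 and at 173, 184, 157 and 166 CPM in the ckx3 ckx5-labelled libraries. It was at 205, 192, 229 and 220 CPM in scl28 and at 141, 187, 211 and 219 CPM in WT. Every d14-7 library was below every other library. IAA27 fell by 0.83 ± 0.11 in d14-7 (edgeR adjusted p = 6.76e-05), and the annotated locus AT4G29070 overlaps it.

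IAA28 (AT5G25890, chromosome 5, 9033204 to 9035140, plus strand), a repressor known from lateral root formation, fell in d14-7 and in the ckx3 ckx5-labelled libraries and rose in scl28. It was at 25.1, 24.8, 23.8 and 22.8 CPM in d14-7 and at 28.8, 32.3, 24.5 and 30.3 CPM in the ckx3 ckx5-labelled libraries. In scl28 it was at 58.1, 74.0, 61.4 and 53.9 CPM and in WT at 30.1, 41.5, 44.2 and 47.6 CPM. The scl28 libraries were above all others and d14-7 was below all WT libraries, while the ckx3 ckx5-labelled libraries overlapped WT through WT replicate 1. IAA28 fell by 0.76 ± 0.13 in d14-7 (edgeR adjusted p = 0.000425) and by 0.50 ± 0.13 in the ckx3 ckx5-labelled libraries (edgeR adjusted p = 0.00702), and rose by 0.60 ± 0.12 in scl28 (edgeR adjusted p = 0.00300). These 3 calls held under every alternative tried, and the 3 comparisons share the WT libraries.

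IAA26 (AT3G16500, PAP1, chromosome 3, 5612203 to 5614803, minus strand) was at 89.5, 93.4, 92.8 and 99.1 CPM in d14-7 and at 114, 111, 97.4 and 103 CPM in the ckx3 ckx5-labelled libraries. It was at 122, 127, 119 and 129 CPM in scl28 and at 105, 113, 122 and 125 CPM in WT. The d14-7 libraries were below all scl28 and WT libraries, by a small margin at the top. IAA26 fell by 0.31 ± 0.06 in d14-7 (edgeR adjusted p = 0.00212). IAA16 fell by 0.40 ± 0.10 (edgeR adjusted p = 0.00645) and IAA13 by 0.34 ± 0.12 (edgeR adjusted p = 0.0431). With the leaf score as a covariate, these last 3 were not called, at -0.21 for IAA26 (edgeR adjusted p = 0.0695), -0.18 for IAA16 (edgeR adjusted p = 0.253) and -0.01 for IAA13 (edgeR adjusted p = 0.954). IAA13 was also lost under 10 other settings, among them the omission of WT replicate 2, 3 or 4 and of d14-7 replicate 1, 2 or 4.

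Leaf markers moved with this comparison, 7 of 14 being called higher in d14-7, and of 9 clock genes 1 rose and 4 fell. Of the 16 calls, 8 held under every alternative, the leaf covariate included, IAA27, IAA28, IAA29, GH3.3, GH3.6, GH3.9, GH3.10 and GH3.17. For the other 8 members the part of leaf tissue in the difference was not tested beyond the values given. In the plot against the leaf score, the d14-7 libraries carried 56.9 to 97.2 CPM of GH3.5, next to 104 CPM in the WT library with a score of 10.74. The d14-7 libraries carried 59.9 to 86.5 CPM of GH3.6, against 223 CPM in the same WT library.

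**Figure D4:**
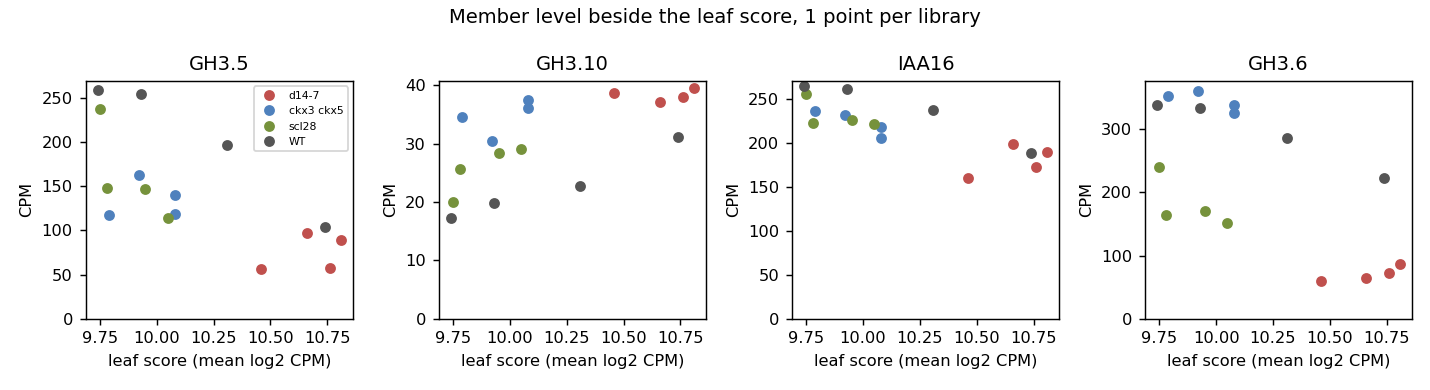
CPM of GH3.5, GH3.10, IAA16 and GH3.6 against the leaf score (mean log2 CPM of 14 photosynthesis genes), 1 point per library, coloured by genotype. WT replicate 1, at a score of 10.74, lies beside the d14-7 points for GH3.5 (104 CPM) and IAA16 (188 CPM) and well above them for GH3.6 (223 CPM).

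Among the Aux/IAA genes that changed in the ckx3 ckx5-labelled libraries, most rose against WT. IAA1 and IAA5 and the scarce IAA32 led, and IAA3, IAA4 and IAA9 rose by smaller amounts, while GH3.9 and GH3.17 fell. In all 13 of 36 members changed (36.1%), where 29.6% of all loci did. They were 8 higher, where 13.6% of all loci were, and 5 lower, where 16.0% were. Groups did not overlap in 11 members, against 26.8% of all loci. The median absolute change was 0.35 over the members and 0.20 over all loci.

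IAA1 rose by 1.37 ± 0.17 (edgeR adjusted p = 1.56e-05) and IAA5 by 1.29 ± 0.29 (edgeR adjusted p = 0.00332), from the library values given above, and for both the groups did not overlap. IAA32 (AT2G01200, chromosome 2, 117969 to 120095, plus strand), which lacks the degron recognised by TIR1 and is known from the apical hook, had very few reads. It was at 0, 0.311, 0.0988 and 0.259 CPM in d14-7 and at 0.778, 1.07, 1.11 and 0.671 CPM in the ckx3 ckx5-labelled libraries. It was at 0.454, 0.413, 0.614 and 0.377 CPM in scl28 and at 0.163, 0.321, 0.0589 and 0.0527 CPM in WT. In CPM the ckx3 ckx5-labelled libraries were above all others, on 25, 30, 37 and 21 counts, against 5, 9, 2 and 2 counts in WT. IAA32 rose by 2.66 ± 0.53 in the ckx3 ckx5-labelled libraries (edgeR adjusted p = 0.00136), and the annotated locus AT2G01210 overlaps it.

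IAA9, one of the most abundant members, rose by 0.34 ± 0.08 (edgeR adjusted p = 0.00451), with 448 to 501 CPM in the ckx3 ckx5-labelled libraries and 312 to 424 CPM in WT. IAA3 (SHY2), which restrains cell division at the edge of the root meristem, rose by 0.43 ± 0.11 (edgeR adjusted p = 0.00825), and IAA4 by 0.35 ± 0.12 (edgeR adjusted p = 0.0333). IAA4 was not called when WT replicate 1 (0.24, edgeR adjusted p = 0.0620), WT replicate 2 or ckx3 ckx5 replicate 3 or 4 was left out, or in a model of these 2 groups alone (edgeR adjusted p = 0.0692). The annotated locus AT5G09425 overlaps IAA9, and AT1G04230 overlaps IAA3.

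IAA12 (BODENLOS), the partner of ARF5 in the embryo, fell by 0.22 ± 0.06 (edgeR adjusted p = 0.0108), and IAA28 fell as given above. IAA33 (AT5G57420, chromosome 5, 23269914 to 23271092, plus strand), another repressor without the degron, was at 0.801, 0.776, 0.757 and 0.720 CPM in d14-7 and at 0.311, 0.716, 0.542 and 0.894 CPM in the ckx3 ckx5-labelled libraries. It was at 0.909, 1.93, 2.13 and 1.16 CPM in scl28 and at 1.07, 1.14, 1.62 and 0.949 CPM in WT. The libraries labelled ckx3 ckx5 were below all WT libraries, replicate 4 only just. IAA33 fell by 0.96 ± 0.32 (edgeR adjusted p = 0.0337), a call not made when WT replicate 2 or 3 or ckx3 ckx5 replicate 1 (-0.73, edgeR adjusted p = 0.0975) or 3 was left out, or in a model of these 2 groups alone.

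Among the GH3 genes GH3.2 rose by 0.86 ± 0.14 (edgeR adjusted p = 0.000263) and GH3.10 by 0.60 ± 0.15 (edgeR adjusted p = 0.00515). GH3.9 fell by 1.09 ± 0.15 (edgeR adjusted p = 4.74e-05) and GH3.17 by 0.62 ± 0.14 (edgeR adjusted p = 0.00322). The abundant GH3.6 did not pass, at 0.22 ± 0.15 with a 95% interval of -0.07 to 0.52 (edgeR adjusted p = 0.278), nor did GH3.5 at -0.60 ± 0.27 (edgeR adjusted p = 0.106). Of the 13 calls, 11 held under every alternative that tested them, all except IAA4 and IAA33. The stricter filter on low counts dropped IAA32, so its call was not tested there. The summed level of 9 clock genes was 285 to 325 CPM in the ckx3 ckx5-labelled libraries and 560 to 594 CPM in WT, with none at 0. That sum followed LHY (21.2 CPM, against 258 in WT) and CCA1 (25.8 CPM, against 138 in WT), which fell together with PRR9, while the other 6 clock genes rose. The summed level of 6 floral genes was 8.17 to 22.4 CPM against 6.25 to 9.46 CPM in WT, with 4 of 6 called and none at 0. The part of either in these differences was not tested.

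In scl28, 3 Aux/IAA genes rose and 2 fell against WT, and 3 of the 8 GH3 genes tested fell. The risers were IAA17, IAA28 and IAA32, and the fallers IAA7, IAA19, GH3.3, GH3.6 and GH3.9. This made 8 of 36 members (22.2%), where 19.8% of all loci were called, with 9.30% higher and 10.5% lower over all loci. Groups did not overlap in 7 members, against 18.8% of all loci. The median absolute change was 0.28 over the members and 0.17 over all loci. Every value here carries the difference of 2 days in harvest, which cannot be told apart from genotype.

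IAA17 (AXR3), in which stabilising mutations block auxin response, rose by 0.53 ± 0.09 (edgeR adjusted p = 0.000598), with 74.7 to 93.5 CPM in scl28 and 45.6 to 61.5 CPM in WT. IAA32 rose by 1.71 ± 0.57 (edgeR adjusted p = 0.0435) on 12 to 23 counts per scl28 library. Its call was lost under 8 settings, with an edgeR adjusted p of 0.123 without WT replicate 3, 0.121 without WT replicate 4 and 0.113 without scl28 replicate 3.

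IAA19 (AT3G15540, MSG2, chromosome 3, 5264001 to 5265695, plus strand), which acts with ARF7 in the bending and elongation of the hypocotyl, was at 35.7, 28.5, 44.8 and 43.4 CPM in d14-7 and at 38.1, 36.7, 40.3 and 55.4 CPM in the ckx3 ckx5-labelled libraries. It was at 14.3, 15.6, 16.5 and 24.6 CPM in scl28 and at 19.2, 28.4, 39.1 and 37.7 CPM in WT. The scl28 libraries were below all libraries of the other 2 mutants, and overlapped WT through scl28 replicate 4 and WT replicate 1. IAA19 fell by 0.81 ± 0.22 (edgeR adjusted p = 0.0175), a call lost without WT replicate 3 or 4 (edgeR adjusted p = 0.0653 and 0.0617), without scl28 replicate 1 or 2, without the filter on low counts and with only these 2 groups in the model. IAA7 (AXR2) fell by 0.56 ± 0.18 (edgeR adjusted p = 0.0383), and its call was lost under 8 settings, the highest edgeR adjusted p being 0.120 without WT replicate 3.

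GH3.3 fell by 0.79 ± 0.13 (edgeR adjusted p = 0.000382), GH3.6 by 0.70 ± 0.15 (edgeR adjusted p = 0.00393) and GH3.9 by 0.85 ± 0.15 (edgeR adjusted p = 0.000865). These 3 calls and those of IAA17 and IAA28 held under every alternative tried. Of the GH3 genes that did not pass, GH3.5 was at -0.33 ± 0.27, with a 95% interval of -0.86 to 0.19. The 9 clock genes summed to 1032 to 1101 CPM in scl28 and 560 to 594 CPM in WT, with 5 higher, 1 lower and none at 0, and the 6 floral genes to 10.6 to 15.9 CPM in scl28 and 6.25 to 9.46 CPM in WT, with 2 called and none at 0. Xylem markers summed to 170 to 221 CPM in scl28 and 212 to 243 CPM in WT, with 1 of 6 called and none at 0. The part of these in the differences was not tested.

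**Figure D5:**
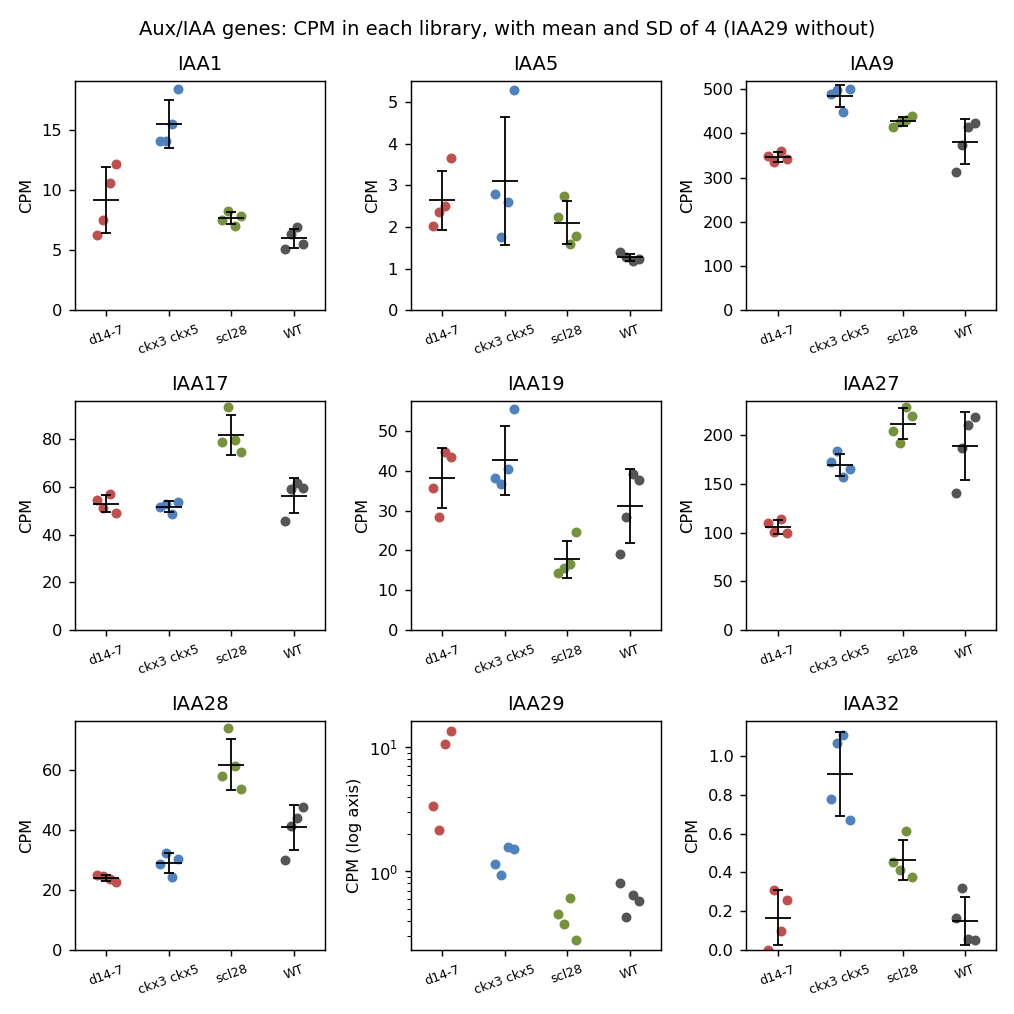
CPM of 9 Aux/IAA genes in each library (points) with the mean and SD of 4 (IAA29 on a log axis without them), for d14-7, the ckx3 ckx5-labelled libraries, scl28 and WT. The scl28 points lie highest for IAA17 and IAA28, the ckx3 ckx5-labelled ones highest for IAA1, and the d14-7 points lowest for IAA27.

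The mutants were also compared with each other, which in the main model leaves the WT libraries and their leaf transcripts out of the fold change. All 16 libraries were in 1 model, so the spread between WT libraries still entered the SE and p-values. With the leaf score as a covariate, 1 slope was fitted over all 16 libraries. The WT libraries, whose scores ran from 9.74 to 10.74, therefore also entered the fold changes given with that covariate. Between d14-7 and the ckx3 ckx5-labelled libraries, 6 members were higher and 10 lower (44.4%, where 36.8% of all loci were called, 17.8% higher and 19.0% lower). Groups did not overlap in 15 members, against 41.4% of all loci. Higher in d14-7 were IAA29 (2.52 ± 0.45), GH3.1 (1.56 ± 0.28), IAA31 (1.17 ± 0.31), IAA18 (0.43 ± 0.15), GH3.3 (0.38 ± 0.12) and IAA12 (0.26 ± 0.06). Lower in d14-7 were IAA32 (-2.33 ± 0.52), GH3.6 (-2.28 ± 0.16), GH3.5 (-0.84 ± 0.27), IAA1 (-0.75 ± 0.17), IAA27 (-0.68 ± 0.11), IAA3 (-0.58 ± 0.11), GH3.9 (-0.57 ± 0.15), IAA9 (-0.48 ± 0.08), IAA16 (-0.30 ± 0.10) and IAA26 (-0.18 ± 0.06). GH3.6 had the smallest p of these, being 4.86-fold lower in d14-7 (edgeR adjusted p = 2.59e-08). Its call and that of IAA12 held under every alternative. The calls of GH3.1 and IAA32 held under every alternative that tested them, but the stricter filter on low counts dropped both genes. IAA31 rested on 6 to 13 counts per ckx3 ckx5-labelled library. Of the leaf markers 10 of 14 were higher in d14-7, and of 9 clock genes 2 were higher and 6 lower. With the leaf score as a covariate 12 of the 16 calls were not made. Among these, IAA1 at -0.70, IAA31 at 1.27, GH3.3 at 0.48 and IAA29 at 1.83 had moved by less than 1.5 times. The other 8 had moved by more, IAA3 to -0.36, IAA9 to -0.23, IAA27 to -0.31, GH3.9 to -0.18, GH3.5 and IAA26 to -0.04, and IAA16 and IAA18 to -0.01. The part of leaf tissue in these differences was not tested beyond this.

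Between d14-7 and scl28, 7 members were higher and 13 lower (55.6%, where 42.5% of all loci were called, 20.0% higher and 22.5% lower), the most of any pair. Groups did not overlap in 21 members, against 40.4% of all loci. All 8 GH3 genes tested were called, of which GH3.3, GH3.6 and GH3.17 were also called with the leaf score as a covariate. Higher in d14-7 were IAA29 (4.08 ± 0.51), IAA6 (1.67 ± 0.44), GH3.3 (1.33 ± 0.13), GH3.1 (1.13 ± 0.27), IAA19 (2.15-fold higher, with a log2 SE of 0.22), GH3.10 (0.57 ± 0.14) and GH3.2 (0.36 ± 0.14). Lower in d14-7 were IAA28 (-1.36 ± 0.13), GH3.6 (-1.36 ± 0.15), GH3.5 (-1.11 ± 0.27), IAA33 (-1.01 ± 0.31), IAA27 (-0.99 ± 0.11), GH3.17 (-0.97 ± 0.14), GH3.9 (-0.81 ± 0.15), IAA17 (-0.63 ± 0.09), IAA10 (-0.41 ± 0.13), IAA26 (-0.41 ± 0.06), IAA16 (-0.36 ± 0.10), IAA3 (-0.34 ± 0.11) and IAA9 (-0.30 ± 0.08). Those that held under every alternative were IAA6, IAA17, IAA19, IAA27, IAA28, IAA29, GH3.3, GH3.6 and GH3.17. IAA6 rested on 9 to 21 counts per scl28 library. Under the leaf covariate IAA6 was at 2.59, IAA19 at 1.86, IAA27 at -0.58 and GH3.17 at -0.43, each moved by over 1.5 times. Of the calls lost with it, GH3.5 was at -0.18 (edgeR adjusted p = 0.805) and GH3.9 at -0.37 (edgeR adjusted p = 0.213), while GH3.1 at 0.79 and IAA33 at -0.86 had moved by less than 1.5 times. IAA3 was at -0.10, IAA9 at -0.01, IAA16 at -0.03 and IAA26 at -0.25, and the direction of IAA10, GH3.2 and GH3.10 turned. Harvest differed by 2 days. In this comparison 13 of 14 leaf markers and 5 of 6 xylem markers were higher in d14-7, and 5 of 7 meristem and axil markers were lower. The xylem markers summed to 267 to 313 CPM in d14-7 and 170 to 221 CPM in scl28, and the meristem and axil markers to 206 to 224 CPM in d14-7 and 242 to 322 CPM in scl28, with none at 0. Of 9 clock genes 1 was higher and 5 lower in d14-7, with sums of 432 to 461 CPM in d14-7 and 1032 to 1101 CPM in scl28. The part of these lists in the differences was not tested.

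When scl28 was set against the ckx3 ckx5-labelled libraries, 8 members were higher and 8 lower (44.4%, where 24.7% of all loci were called, 13.1% higher and 11.5% lower). Groups did not overlap in 19 members, against 29.9% of all loci. Of the 14 leaf markers 2 were called, both lower in scl28. Higher in scl28 were IAA33 (1.32 ± 0.32), IAA28 (1.09 ± 0.13), IAA31 (1.03 ± 0.31), GH3.17 (0.77 ± 0.14), IAA17 (0.66 ± 0.09), IAA12 (0.33 ± 0.06), IAA27 (0.32 ± 0.11) and IAA26 (0.23 ± 0.06). Lower in scl28 were IAA6 (-1.78 ± 0.44), IAA29 (-1.56 ± 0.55), IAA19 (-1.26 ± 0.22), IAA1 (-1.02 ± 0.17), GH3.3 (-0.95 ± 0.13), GH3.6 (-0.92 ± 0.15), GH3.2 (-0.48 ± 0.14) and GH3.10 (-0.43 ± 0.14). The calls of IAA26, IAA27, IAA29, IAA31, GH3.2 and GH3.10 were each lost under at least 1 alternative, and the other 10 were not. The clock list summed to 1032 to 1101 CPM in scl28 and 285 to 325 CPM in the ckx3 ckx5-labelled libraries, with LHY, CCA1 and PRR9 higher in scl28 and 5 of the 9 lower. Its part in these differences was not tested.

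At least 1 comparison with WT called 25 of the 36 members (69.4%, where 60.0% of all loci were called). Only 2 members, IAA28 and GH3.9, were called in all 3 comparisons with WT (5.56%, where 5.19% of all loci were), and GH3.9 alone of the pair had 1 direction throughout. In all 3 comparisons between mutants, 5 members were called, IAA26, IAA27, IAA29, GH3.3 and GH3.6 (13.9%, where 6.16% of all loci were). The order of these by level was d14-7, the ckx3 ckx5-labelled libraries and scl28 from low to high for IAA26 and IAA27. For IAA29 and GH3.3 it ran from scl28 through the ckx3 ckx5-labelled libraries to d14-7, and for GH3.6 from d14-7 through scl28 to the ckx3 ckx5-labelled libraries.

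At the other end, 7 members were called in none of the 6 comparisons by edgeR (19.4%, where 28.5% of all loci were), IAA2, IAA8, IAA11, IAA14, IAA15, IAA20 and IAA30. Unadjusted p was under 0.05 for IAA30 and IAA11 in d14-7, for IAA30 in the ckx3 ckx5-labelled libraries and for IAA11 in scl28, each against WT, and DESeq2 called 2 of the 7 in d14-7 where limma-voom called 0. IAA8, the most abundant of them, ranged from 329 to 377 CPM over all 16 libraries. Its change against WT was 0.11 ± 0.05 in d14-7 with a 95% interval of 0.00 to 0.21, 0.07 ± 0.05 in the ckx3 ckx5-labelled libraries with an interval of -0.04 to 0.17, and 0.09 ± 0.05 in scl28 with an interval of -0.01 to 0.20. IAA14 (SLR), known from lateral root initiation, lay between 12.5 and 22.1 CPM, IAA2 between 33.2 and 65.4, and IAA11 between 12.5 and 20.6. Among the scarce ones IAA30 lay between 2.98 and 6.96 CPM, IAA20 between 0.0976 and 1.50 and IAA15 between 0.0942 and 0.547, where few counts limit what can be detected. IAA34 and GH3.4 were too scarce to test. IAA34 had 7 counts over the 4 d14-7 libraries, 15 over the ckx3 ckx5-labelled ones, 15 over scl28 and 10 over WT, and GH3.4 had 5 counts in d14-7, 6 in the ckx3 ckx5-labelled libraries, 6 in scl28 and 7 in WT.

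The 6 Aux/IAA genes known to lack or to carry an altered degron, IAA20 and IAA30 to IAA34, were all at the low end of the family. IAA30 was the highest of them at 3.96 ± 0.509 CPM per kb in WT. Outside this set, IAA5, IAA6, IAA15 and IAA29 were also below that level in WT, at 1.63, 0.929, 0.254 and 0.481 CPM per kb. Of the 5 tested, IAA32 rose and IAA33 fell in the ckx3 ckx5-labelled libraries and IAA32 rose in scl28. In d14-7 none of the 5 passed by edgeR, with 2 at an unadjusted p under 0.05, while DESeq2 called 1 and limma-voom 0. The nearest, IAA30, was at 0.48 ± 0.20 (edgeR adjusted p = 0.0691).

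Further lists covered other parts of the pathway, and their counts stand beside 38.7% of all loci called in d14-7, 29.6% in the ckx3 ckx5-labelled libraries and 19.8% in scl28, each against WT. Of the 6 receptors of the TIR1/AFB family, 3 fell in d14-7, led by AFB5 (-0.43 ± 0.07, edgeR adjusted p = 0.000583), which also binds synthetic picolinate auxins, and TIR1 (-0.33 ± 0.05, edgeR adjusted p = 0.000278). TIR1 averaged 101 ± 0.284 CPM in d14-7, against 128 ± 4.13 in WT (SD, n = 4 each). In the ckx3 ckx5-labelled libraries AFB2 alone fell (-0.19 ± 0.05, edgeR adjusted p = 0.0128), and in scl28 AFB1 alone (-0.40 ± 0.10, edgeR adjusted p = 0.00919), 16.7% of the list in each case.

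Of 15 ARF genes, 3 rose and 4 fell in d14-7 (46.7%), 2 rose and 2 fell in the ckx3 ckx5-labelled libraries (26.7%) and 6 rose and 1 fell in scl28 (46.7%). ARF11 (0.62 ± 0.16) and ARF18 (0.52 ± 0.12) rose most in d14-7, and ARF10, a repressor ARF targeted by a microRNA, fell most (-0.43 ± 0.12). In the ckx3 ckx5-labelled libraries the activator ARF6 rose by 0.44 ± 0.07 and ARF10 fell by 0.52 ± 0.12. In scl28 ARF18 rose by 0.52 ± 0.12 and ARF3 (ETTIN) by 0.31 ± 0.07, and ARF19 fell by 0.40 ± 0.13. The median change of the 15 genes was -0.00 in d14-7, 0.03 in the ckx3 ckx5-labelled libraries and 0.21 in scl28, where the median of all loci was -0.01, 0.01 and 0.01. Of the 5 TOPLESS corepressors 2 rose in d14-7, TPR3 (0.50 ± 0.08) and TPR2 (0.24 ± 0.07), and 3 fell in the ckx3 ckx5-labelled libraries, of which TPL fell most (-0.29 ± 0.07). In scl28 none of the 5 passed by edgeR, DESeq2 or limma-voom, and 0 had an unadjusted p under 0.05. LBD18 and HAT2, the 2 testable genes of a list of 5 other auxin-induced genes, passed in no comparison by any of the 3 tools, and HAT2 alone had an unadjusted p under 0.05, between d14-7 and scl28.

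Of 15 early SAUR genes, growth genes induced by auxin within minutes, SAUR63 (0.77 ± 0.20) and SAUR21 (0.71 ± 0.20) rose in d14-7 and SAUR9 fell (-1.36 ± 0.13). In the ckx3 ckx5-labelled libraries 5 rose, led by SAUR15 (1.63 ± 0.25) and SAUR65 (1.01 ± 0.23), and in scl28 3 fell, led by SAUR15 (-0.85 ± 0.28) and SAUR20 (-0.80 ± 0.26). SAUR15 was at 3.64 ± 1.04 CPM in the ckx3 ckx5-labelled libraries, 0.645 ± 0.187 CPM in scl28 and 1.17 ± 0.165 CPM in WT (SD, n = 4 each). The median change of the 15 was 0.21 in d14-7, 0.45 in the ckx3 ckx5-labelled libraries and -0.36 in scl28. The genes called were 20.0% of the list in d14-7, under the share of all loci, and 33.3% in the ckx3 ckx5-labelled libraries and 20.0% in scl28, both near it. These 3 comparisons share the WT libraries.

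Auxin is also inactivated outside the GH3 genes described. Of 4 such genes tested, the auxin methyltransferase IAMT1 rose in d14-7 (0.83 ± 0.18) and in the ckx3 ckx5-labelled libraries (0.84 ± 0.18). The auxin glucosyltransferase UGT74D1 was at 40.6 ± 3.04 CPM in d14-7, 25.3 ± 1.26 in the ckx3 ckx5-labelled libraries, 58.1 ± 3.86 in scl28 and 48.6 ± 1.24 in WT. It fell by 0.26 ± 0.06 in d14-7 and by 0.94 ± 0.06 in the ckx3 ckx5-labelled libraries and rose by 0.26 ± 0.06 in scl28. AT1G14120, listed with the auxin-oxidising dioxygenases, rose by 0.99 ± 0.26 in d14-7 and fell by 1.01 ± 0.28 in the ckx3 ckx5-labelled libraries and by 1.16 ± 0.28 in scl28. The counts were 2 higher and 1 lower in d14-7, 1 and 3 in the ckx3 ckx5-labelled libraries and 1 and 1 in scl28. Of 5 GH3 genes tested outside the 9 described, JAR1, which makes the active jasmonate conjugate, fell in d14-7 (-0.36 ± 0.07) and in the ckx3 ckx5-labelled libraries (-0.31 ± 0.07). PBS3, which acts in salicylic acid synthesis, fell in the ckx3 ckx5-labelled libraries (-2.55 ± 0.50) and in scl28 (-2.45 ± 0.50), and its WT level of 11.0 ± 7.95 CPM varied widely. The locus AT5G13370 of the same list fell in all 3 (-1.34 ± 0.18 in d14-7, -1.85 ± 0.19 in the ckx3 ckx5-labelled libraries and -0.83 ± 0.18 in scl28), and AT1G48660 rose by 1.79 ± 0.25 in scl28. This list counted 2 lower in d14-7, 3 lower in the ckx3 ckx5-labelled libraries and 2 higher and 2 lower in scl28. Of 7 shade genes 1 rose and 1 fell in d14-7, 2 rose and 3 fell in the ckx3 ckx5-labelled libraries and 2 fell in scl28. PAR1 was the riser in d14-7 (0.81 ± 0.23). PIF4, which activates IAA19 and IAA29 in seedlings, fell by 0.70 ± 0.10 in d14-7 and by 0.68 ± 0.10 in scl28, and rose by 0.43 ± 0.10 in the ckx3 ckx5-labelled libraries. The part of PIF4 in the levels of IAA19 and IAA29 was not tested.

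Libraries of 1 genotype were not equally close. WT replicate 1 was the lowest of the 4 WT libraries in 23 of the 36 members (63.9%), against 37.5% of all loci. Within d14-7, replicate 3 or replicate 4 held the highest value in most members, 17 (47.2%) and 15 (41.7%), against 26.5% and 23.0% of all loci. In the ckx3 ckx5-labelled libraries, replicate 4 was the highest in 18 of the 36 members, against 27.9% of all loci, and in scl28 replicate 4 in 15 (41.7%), against 27.0%. Among the GH3 genes, GH3.5 had the widest ratio of highest to lowest WT library, at 2.49.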

How the data were processed

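Poly(A) libraries were made with the NEBNext Ultra RNA kit, per the labels' protocols, which does not mark strand. The deposited table holds estimated counts per transcript model of 16 libraries, as the values show, and a second deposited table holds the same values divided by size factors, a normalized signal made by the authors. The submitters' processing notes name TAIR10 and DESeq2. Aligner and counter: not given in the sources used here. Models were summed to 33602 loci, and depth is the total count of 24334925 to 36735056 per library. Loci with low counts were dropped (edgeR's filterByExpr), leaving 20947. The main test was edgeR 4.0.16 (R 4.3.3) quasi-likelihood over all 4 genotypes without covariates. It used trimmed-mean factors and Benjamini-Hochberg adjustment over all loci tested, called under 0.05. A prior count of 2 entered only log2 CPM, as in the leaf score, and fold changes used edgeR's default. CPM were computed on effective library sizes. Each library is a separate pool of plants, and p-values measure the spread between pools. Intervals of fold changes are 95% normal intervals from the SE.

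The alternatives were other scaling factors, no filter and a stricter one, DESeq2 1.42.0, limma-voom (limma 3.58.1), only the 2 groups compared, the replicate number as a block, the leaf score as a covariate, the most abundant model of each locus, and each library left out. Promoters were read from the RefSeq TAIR10.1 genome. Every member called is named with its change. Library values are given for members called in all 3 comparisons with WT or between mutants and for the 6 largest called changes in each comparison with WT, and from other lists at most 2 called rises and 2 falls per comparison. Members and lists were chosen with earlier results of these data known. Of the 38 members 11 are overlapped by another annotated gene, namely IAA3, IAA5, IAA9, IAA10, IAA11, IAA13, IAA27, IAA32, IAA34, GH3.9 and GH3.10. GH3.2 and GH3.4 share 23 windows of 50 bases with other loci and IAA13 shares 8. Reads of all these could be assigned to either.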

Additional observations from a re-analysis of the deposited data

Results flagged for a closer look

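In 7 of 144 groups of 4 libraries, 1 library of a member stood apart from the other 3 by a gap above Dixon's 95% critical value. Chance flags about 1 group in 20 in this way, so the number is about what chance gives. In scl28, replicate 4 was high for IAA3 (43.8 CPM, the others 38.8 to 39.3) and for IAA16 (255 CPM, the others 221 to 226), and replicate 1 was low for IAA8 (341 CPM, the others 366 to 369). Among the ckx3 ckx5-labelled libraries, replicate 4 was high for IAA4 (71.5 CPM, the others 62.3 to 63.5) and for IAA7 (130 CPM, the others 98.1 to 101). In d14-7, replicate 1 was low for GH3.17 (32.3 CPM, the others 35.7 to 36.3). In WT, replicate 1 was low for IAA17 (45.6 CPM, the others 58.9 to 61.5).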

How the results depend on the processing

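Over all alternatives 1594 calls of members were recomputed, of which 1447 kept their direction and their call, 143 lost the call and 4 turned round. DESeq2 and edgeR with its relative log expression factors each kept all 89 calls. The stricter filter, 1 CPM or more in at least 4 libraries, kept the 81 calls it tested. It dropped IAA31, IAA32 and GH3.1, whose calls were not tested under it. The leaf score as a covariate kept 57, and its counts of members were 3 higher and 5 lower in d14-7 against WT, 8 lower in the ckx3 ckx5-labelled libraries and 5 higher in scl28. With it, 3 were higher and 4 lower in d14-7 against the ckx3 ckx5-labelled libraries, and 5 lower in d14-7 against scl28. The reversals all came with this covariate, IAA18 at -0.01 between d14-7 and the ckx3 ckx5-labelled libraries, and IAA10 at 0.03, GH3.2 at -0.12 and GH3.10 at -0.02 between d14-7 and scl28, and their cause was not tested. In scl28 against WT 3 members were lower without the filter on low counts and 3 with only these 2 groups in the model. Leaving out 1 library gave 7 to 8 higher and 8 to 11 lower members in d14-7 against WT, 7 to 9 and 4 to 9 in the ckx3 ckx5-labelled libraries, and 2 to 5 and 3 to 5 in scl28. The ends were 9 lower without WT replicate 1 in the ckx3 ckx5-labelled libraries and 5 higher without WT replicate 1 in scl28, against 2 higher without WT replicate 3. In scl28 3 were lower without WT replicate 3 or 4 or scl28 replicate 1 or 2. Between mutants the same omissions gave 4 to 6 and 7 to 11 for d14-7 against the ckx3 ckx5-labelled libraries, 6 to 7 and 11 to 14 for d14-7 against scl28, and 6 to 7 and 5 to 8 for scl28 against the ckx3 ckx5-labelled libraries, with 5 lower without ckx3 ckx5 replicate 3 or scl28 replicate 3 or 4. By the replicate numbers in the sample titles, correlations of same-numbered deviations ran from -0.275 to 0.342, without a common sign. A block on these numbers kept 88 of the 89 calls. The call lost was IAA27 between scl28 and the ckx3 ckx5-labelled libraries, at 0.31 (edgeR adjusted p = 0.0596). The library names number some of the libraries otherwise, and pairing by those was not tested. Low depth limits, among others, IAA6, IAA15, IAA20, IAA31, IAA32, IAA34, GH3.1 and GH3.4. IAA31 had 6 to 25 counts per library, and IAA6 had 9 to 21 counts per scl28 library.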
